A study of Mus musculus with 2 samples.

Results

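Experiment 1 of this small RNA sequencing study set the mature microRNAs of 1 ethanol-fed mouse liver library beside those of 1 pair-fed library. Its members were the microRNAs whose reads in both libraries summed to at least 10, which 302 of the 484 listed names reached. Both tables of the study together hold 1915 names. Both groups were wild-type female C57BL/6 mice, 8 to 10 weeks old, that first took the control Lieber-DeCarli liquid diet for 5 days. The ethanol-fed mice then had that diet with 5% (v/v) ethanol for 10 days and a gavage of ethanol at 6 g/kg on day 16, whereas the pair-fed mice kept to a control diet of equal calories and a gavage of isocaloric dextrin-maltose. Livers were taken 9 h after the gavage. The sample labels hold 1 sample per condition, and the number of animals behind each library is not given in the sources used here. There was no replicate, so that every difference below is between 2 libraries, carries no p-value, and has no check against the spread between animals. Whole reads were scaled to reads per 1000000 reads on microRNAs (RPM).

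MicroRNAs are short RNAs that lower the stability and translation of messenger RNAs. Each is cut from a hairpin precursor, whose 2 arms give a 5p and a 3p product, and usually 1 of them is loaded into Argonaute while the other is degraded. Bases 2 to 8, called the seed, lead the pairing with targets, so that microRNAs with the same seed are grouped as a family. In liver, miR-122 of hepatocytes is the best known, and precursors that lie close together in the genome are often transcribed as 1 unit.

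The sequences of the microRNAs with at least 100 reads that were at least 2-fold higher or lower in the ethanol-fed library are shown here, since the comparison turns on them. They are mature sequences from RefSeq (GRCm38.p6), which held 259 of the 302 members, with the seed in capitals. miR-486a-5p, miR-486b-5p and miR-145a-5p belong to the same set. The first 7 lines are of the microRNAs that were higher in the ethanol-fed library, and the other 9 of those that were lower.
miR-451a: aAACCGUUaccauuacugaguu
miR-144-3p: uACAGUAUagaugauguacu
miR-1247-5p: aCCCGUCCcguucguccccgga
miR-127-3p: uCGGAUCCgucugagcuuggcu
miR-411-5p: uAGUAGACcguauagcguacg
miR-541-5p: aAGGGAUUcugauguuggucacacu
miR-15b-5p: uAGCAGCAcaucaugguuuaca
miR-378b: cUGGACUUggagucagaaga
miR-1843b-3p: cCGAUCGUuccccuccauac
miR-181a-2-3p: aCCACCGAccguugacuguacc
miR-501-3p: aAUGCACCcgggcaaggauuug
miR-1943-5p: aAGGGAGGaucugggcaccugga
miR-425-5p: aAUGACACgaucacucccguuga
miR-125b-2-3p: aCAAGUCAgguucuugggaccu
miR-101b-5p: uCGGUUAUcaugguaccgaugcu
miR-183-5p: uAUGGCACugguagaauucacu
No seed occurs more than once among these lines, so the set is not made of 1 seed family.

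These microRNAs are spread over the genome (GRCm38.p6, host genes from GENCODE vM21). miR-144-3p (chr11:78073047-78073066) and miR-451a (chr11:78073186-78073207) lie side by side on the plus strand outside annotated genes. miR-127-3p (chr12:109592888-109592909), miR-411-5p (chr12:109710190-109710210) and miR-541-5p (chr12:109742422-109742446, in an intron of the noncoding gene Mirg) lie on the plus strand of chromosome 12. miR-1247-5p (chr12:110278094-110278115) lies on the minus strand in an exon of Dio3os, and miR-15b-5p (chr3:69009775-69009796) in an intron of Smc4. Several of the lower ones are intronic too, with miR-501-3p (chrX:7241270-7241291) in Clcn5, miR-1843b-3p (chr1:159340400-159340419) in Cop1, miR-101b-5p (chr19:29135302-29135324) in Rcl1, miR-1943-5p (chr15:79375271-79375293) in Tmem184b and miR-125b-2-3p (chr16:77646318-77646339) in the noncoding Mir99ahg. miR-425-5p (chr9:108568789-108568811) lies in an exon of the noncoding 4833445I07Rik, and miR-181a-2-3p (chr2:38852785-38852806) outside annotated genes. miR-183-5p lies at chr6:30169711-30169732 and miR-378b at chr11:88352839-88352858.

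Reads on microRNAs came to 4311802 in the ethanol-fed and 4170601 in the pair-fed library. The members held 99.99% of the reads in each. A count of 0 allows up to 3 reads, which is 0.719 RPM of the pair-fed and 0.696 RPM of the ethanol-fed library. As no molecular identifiers marked PCR copies, such limits and all intervals below cover counting error only. The 182 names under the minimum held 356 reads in the ethanol-fed and 337 reads in the pair-fed library. At its edge, 6 members had exactly 10 reads, and 7 names were left out with 9 reads.

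Most members differed by less than 2-fold. With 1 read added to each library, 38 members (12.6% of the 302) were at least 2-fold higher in the ethanol-fed library and 39 (12.9%) at least 2-fold lower, or 25.5% in either direction. The median log2 ethanol-fed to pair-fed ratio was -0.01. In 162 of the 302 members the exact 95% counting interval of the ratio lay on 1 side of no change, which held for 67 of the 77 that differed by at least 2-fold. In 23 members the whole interval lay beyond 2-fold.

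How far the ratios spread went with abundance. Of the 144 members with 10 to 99 reads, 28 were higher and 30 lower by at least 2-fold (40.3%), with an SD of the log2 ratio of 1.32. Among the 76 members with 100 to under 1000 reads, 7 were higher and 7 lower (18.4%), with an SD of 0.79. Of the 48 members with 1000 to under 10000 reads 1 was higher and 2 were lower (6.25%), and of the 34 members with at least 10000 reads 2 were higher (5.88%), with an SD of 0.50 in both classes. The medians of these classes stayed between -0.15 and 0.10. The intervals narrowed in step, from a median high-to-low bound ratio of 6.21 in the lowest class to 1.04 in the highest, and 48 of the 58 differences in the lowest class had an interval on 1 side of no change.

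**Figure D1:**
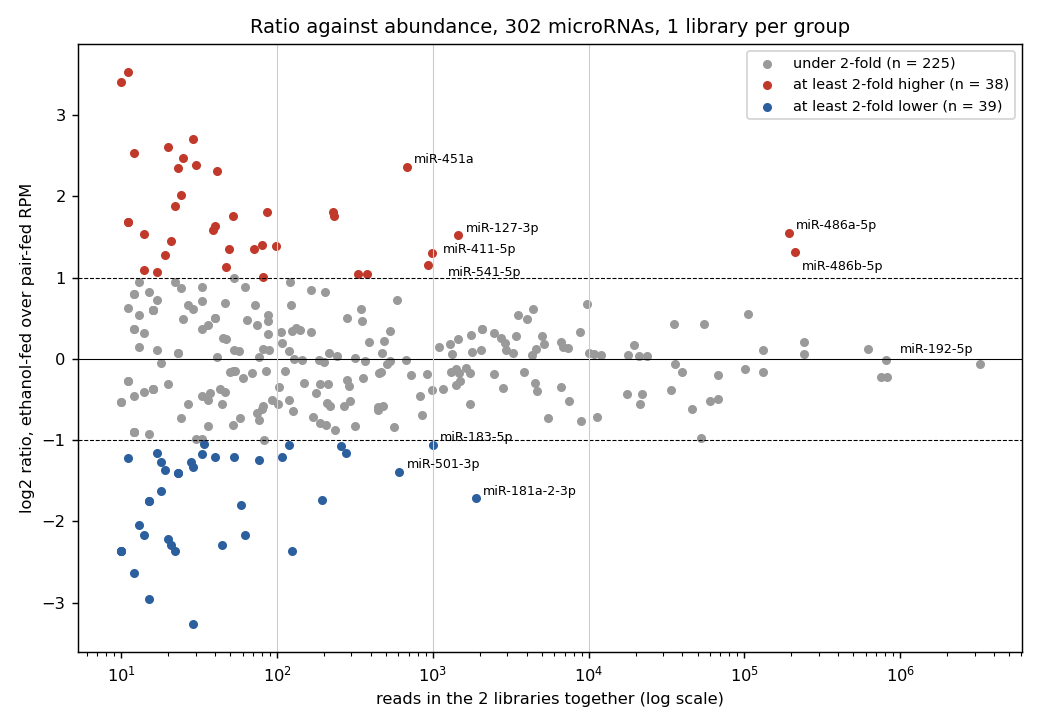
Log2 ethanol-fed to pair-fed ratio (y axis) against the reads of both libraries together (x axis, log scale) for the 302 members, 1 point each, with dashed lines at 2-fold and grey lines between the abundance classes. The 38 higher and 39 lower members lie mostly left of 100 reads, and the only called members right of 10000 are miR-486b-5p and miR-486a-5p.

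The same few microRNAs filled both libraries. The 34 members with at least 10000 reads held 97.7% of the pair-fed and 97.6% of the ethanol-fed reads, whereas the 144 members with 10 to 99 reads held 0.0591% and 0.0608%. Among the 10 most abundant microRNAs of each library 9 were shared, and among the 50 most abundant 47. miR-192-5p, which hepatocytes and gut epithelium express, had 1618863 pair-fed and 1608689 ethanol-fed reads (log2 ratio -0.06, or 0.02 with TMM factors). It was followed in both libraries by the same 4 microRNAs. let-7f-5p, of the let-7 family that restrains growth genes, had 438186 and 387873 reads (-0.22), and miR-143-3p, which is known from smooth muscle and fibroblasts, had 401530 and 412790 (-0.01). miR-10a-5p, encoded within the Hox genes, had 400182 pair-fed and 354582 ethanol-fed reads (-0.22), and miR-148a-3p, a hepatocyte microRNA, had 293272 and 330768 (0.13). None of these 5 came near 2-fold.

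The widest differences among microRNAs with at least 10000 reads were those of miR-486b-5p and miR-486a-5p, both abundant in red cells. miR-486a-5p had 48013 pair-fed and 145399 ethanol-fed reads, which was 2.93-fold higher in RPM (95% interval 2.90 to 2.96). miR-486b-5p had 58771 and 151792 reads and was 2.50-fold higher (2.47 to 2.52). They moved from the 12th and the 10th to the 7th and the 6th most abundant place. The names stand for near-identical copies whose reads the authors' counting could share out or list under both names, so their separate values are uncertain. The remaining red cell microRNAs also had more reads in the ethanol-fed library. miR-451a, which matures without Dicer in red cell precursors, had 107 pair-fed and 574 ethanol-fed reads (5.19-fold higher, 4.21 to 6.44). miR-144-3p, from the same transcript, had 49 and 180 reads (3.55-fold, 2.58 to 4.98), and miR-144-5p had 40 and 81 (log2 ratio 0.95). The rarer arm miR-486a-3p, which is not in the list of 5 red cell microRNAs, had 9 and 31 reads (3.33-fold higher, 1.55 to 7.96). The 5 listed ones together summed to 25651 pair-fed and 69119 ethanol-fed RPM, which is too high if the miR-486a-5p and miR-486b-5p names share reads. In experiment 2 each of the 5 lay on the other side, with 873 pair-fed and 514 ethanol-fed RPM for miR-451a, 818 and 540 for each of miR-486a-5p and miR-486b-5p, 86.7 and 69.6 for miR-144-3p, and 48.5 and 28.3 for miR-144-5p. In whole liver, a difference in the number of cells of a type cannot be told apart from a difference in the RNA of each cell.

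Of the 158 members with at least 100 reads, 10 (6.33%) were at least 2-fold higher and 9 (5.7%) at least 2-fold lower. Beside the 4 red cell microRNAs, the higher ones held 3 from 1 imprinted region of chromosome 12. miR-127-3p, which lies antisense to Rtl1, had 367 pair-fed and 1092 ethanol-fed reads (88.0 and 253 RPM), and was 2.88-fold higher (2.55 to 3.25). miR-411-5p had 278 and 712 reads (2.48-fold, 2.15 to 2.86), and miR-541-5p had 283 and 652 (2.23-fold, 1.94 to 2.57). The interval of miR-541-5p alone among these 3 reached below 2-fold.

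The last 3 of the higher group were not among the members counted for that chromosome 12 region. miR-1247-5p, cut from an exon of Dio3os further along chromosome 12, had 51 pair-fed and 181 ethanol-fed reads and was 3.43-fold higher (2.50 to 4.78). miR-145a-5p, a microRNA of smooth muscle and stellate cells, had 119 and 256 reads (2.08-fold, 1.67 to 2.61). miR-15b-5p, a member of the miR-15/16 family that restrains the cell cycle, had 105 and 226 reads (2.08-fold, 1.64 to 2.65). The intervals of the latter pair included 2-fold.

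Among the 9 lower microRNAs, miR-181a-2-3p had the most reads. This 3p product of 1 of the miR-181a hairpins had 1431 pair-fed and 450 ethanol-fed reads (343 and 104 RPM), and was 3.29-fold lower in the ethanol-fed library (2.96 to 3.66). miR-501-3p, from an intron of Clcn5, had 438 and 172 reads (2.63-fold lower, 2.20 to 3.16). miR-183-5p, of the sensory-organ cluster that also encodes miR-182 and miR-96, had 670 and 332 reads (2.09-fold lower, 1.83 to 2.39). The interval of miR-183-5p included 2-fold, whereas those of miR-181a-2-3p and miR-501-3p did not.

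The remaining lower microRNAs had fewer reads. miR-378b had 104 pair-fed and 20 ethanol-fed reads and was 5.38-fold lower (3.31 to 9.16). miR-1843b-3p had 148 and 45 reads (3.40-fold lower, 2.42 to 4.86). Both intervals lay wholly beyond 2-fold. miR-425-5p, cut from the same transcript as miR-191, had 191 and 88 reads (2.24-fold lower, 1.73 to 2.92), while miR-1943-5p had 75 and 33 (2.35-fold lower, 1.54 to 3.65). miR-125b-2-3p had 174 and 85 reads, and miR-101b-5p 80 and 39, both 2.12-fold lower. Each of the last 4 had an interval that reached below 2-fold.

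**Figure D2:**
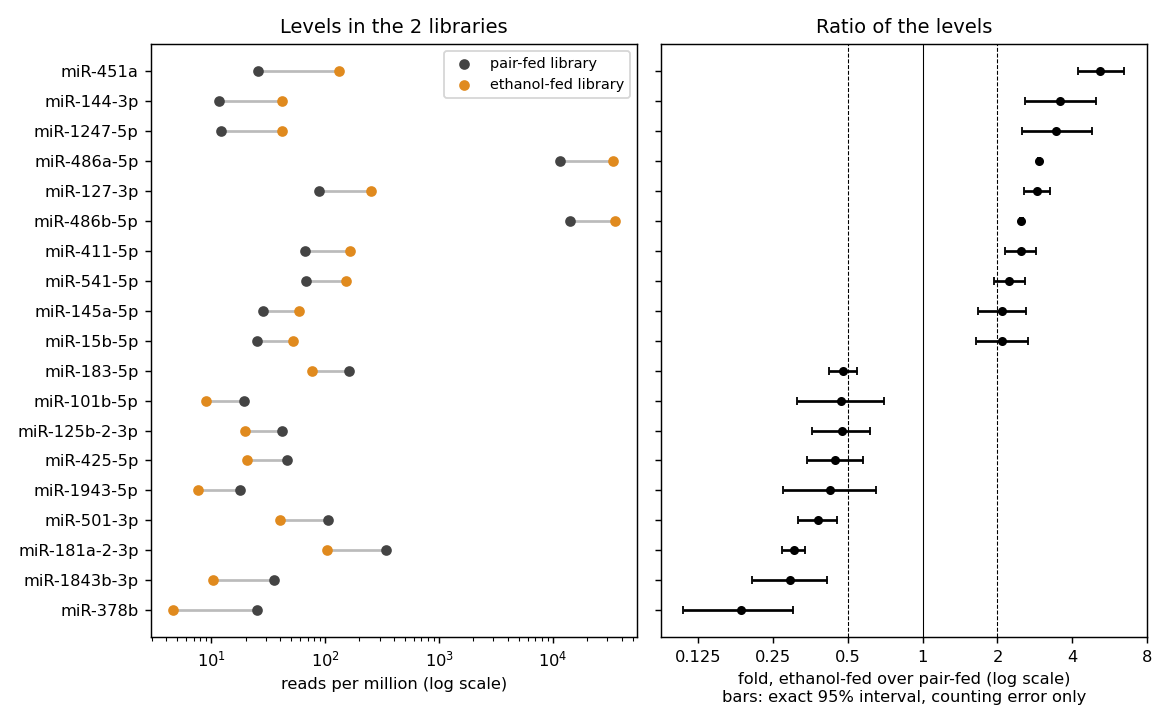
Levels in RPM (x axis, log scale) of the 19 microRNAs with at least 100 reads and at least 2-fold different, with 1 mark per library and exact 95% counting intervals. miR-486a-5p and miR-486b-5p stand far to the right of the other 17, and miR-451a (25.7 and 133 RPM) and miR-378b (24.9 and 4.64 RPM) show the widest gaps.

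In some of the lower products, the microRNA of the opposite arm was more abundant and did not reach 2-fold. miR-1843b-5p had 780 pair-fed and 988 ethanol-fed reads (log2 ratio 0.29), on the other side of 0 from miR-1843b-3p. miR-101b-3p had 18736 pair-fed and 14908 ethanol-fed reads (log2 ratio -0.38), beside 80 and 39 of miR-101b-5p. miR-125b-5p, which 2 hairpins encode, had 2589 and 2040 reads (-0.39). miR-181a-5p, which likewise comes from 2 hairpins, had 20640 and 19125 (-0.16), far from the -1.71 of miR-181a-2-3p. The reads of these last 2 cannot be assigned to 1 hairpin.

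Among the 144 members with 10 to 99 reads, the widest ratios rested on very few reads in 1 library. miR-744-3p had 0 pair-fed and 11 ethanol-fed reads, at least 3.55-fold higher when 0 is set to the limit of 3 reads, and miR-7236-3p had 0 and 10, at least 3.22-fold higher on the same footing. The exact intervals of these ratios, which also count the error of the 11 and 10 reads, begin lower, at 2.43 and 2.17. miR-300-3p had 3 and 26 reads (8.38-fold higher, 2.57 to 43.3), miR-133a-3p, a striated muscle microRNA, 2 and 18 (8.71-fold, 2.08 to 77.4), and miR-574-5p 1 and 11 (10.6-fold, 1.55 to 458). On the lower side, miR-674-3p had 27 pair-fed and 2 ethanol-fed reads (14.0-fold lower, 3.51 to 121), miR-31-3p 14 and 1 (14.5-fold lower, 2.20 to 612), and miR-29b-2-5p 11 and 1 (11.4-fold lower, 1.65 to 490). miR-33-5p, encoded in the sterol regulator gene Srebf2, followed with 19 and 3 reads (6.55-fold lower, 1.93 to 34.5). At the same log2 ratio of -2.37, miR-503-3p, miR-547-3p and miR-5126 had 9 pair-fed reads and 1 ethanol-fed read each (9.30-fold lower, 1.29 to 408). Each of the intervals given lay on 1 side of 1, and each spanned more than 10-fold.

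Seed families were then summed, to ask whether microRNAs that read the same targets moved together. In 30 families with at least 2 members, 82 members were placed, and the summed reads of 25 families were within 1.5-fold. Only 3 sums reached 2-fold, namely 1 higher and 2 lower. miR-486a-5p and miR-486b-5p had no sequence here and so were in no seed family. Joined by name, they summed to 25604 pair-fed and 68925 ethanol-fed RPM, 2.69-fold higher (2.67 to 2.71). This sum takes the 2 names as separate reads. If they share reads, it is too high and its interval too narrow. In 16 of the 30 families all members lay on 1 side of 0 (15 to 17 under other scalings), but of the 10 families with at least 3 members this held for 3, the miR-99/100, miR-15/16 and miR-29 families. Over all 302 members 147 lay above 0 and 155 below, so that unrelated pairs would often share a side too. Among the 16 are miR-199a-3p with miR-199b-3p and let-7a-1-3p with let-7c-2-3p. Each of these pairs has 1 sequence and near-equal reads, so its agreement was given in advance. With each sequence counted once, 2 of 28 families reached 2-fold.

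The 3 seed families whose sums reached 2-fold were small and of low level. Their sequences are shown because the family values rest on them.
miR-193a-3p: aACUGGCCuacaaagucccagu
miR-193b-3p: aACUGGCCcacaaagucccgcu
miR-501-3p: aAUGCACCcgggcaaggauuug
miR-500-3p: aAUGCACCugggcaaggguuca
let-7a-1-3p: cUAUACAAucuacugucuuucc
let-7c-2-3p: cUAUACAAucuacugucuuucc
miR-193a-3p had 26 pair-fed and 55 ethanol-fed reads and miR-193b-3p had 4 and 20, a sum of 7.19 and 17.4 RPM, 2.42-fold higher (1.56 to 3.83). In the family of miR-500-3p and miR-501-3p the sum was 2.61-fold lower (2.19 to 3.12), with miR-500-3p at only 6 and 4 reads beside miR-501-3p. let-7a-1-3p and let-7c-2-3p have the same sequence and were listed with the same 17 and 6 reads, so the file cannot tell their reads apart. Their sum was 2.93-fold lower, with an interval of 1.48 to 6.21 that takes the 2 names as separate reads and is too narrow if they are not.

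Among the seed families, the abundant ones differed little as sums, while the members of some of them spread. The let-7 family, with 9 members, had a log2 ratio of sums of -0.12, although 6 members lay above 0 and 3 below (7 and 2 with TMM factors). let-7f-5p held 72.1% of its reads and had its lowest ratio (-0.22). At the upper end, let-7b-5p had 3661 pair-fed and 6050 ethanol-fed reads (0.68), and let-7c-5p had 42022 and 63779 (0.55). let-7f-5p and let-7b-5p share the seed and differ at 3 of 22 bases, as does miR-98-5p from each of them.
let-7f-5p: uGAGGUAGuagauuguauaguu
let-7b-5p: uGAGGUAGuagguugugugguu
miR-98-5p: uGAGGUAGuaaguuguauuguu
The let-7 sum therefore mostly reflected let-7f-5p.

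In the families below, by contrast, the members lay on 1 side, and their sequences are given to show how close they are.
miR-99a-5p: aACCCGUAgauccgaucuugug
miR-99b-5p: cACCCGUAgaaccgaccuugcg
miR-100-5p: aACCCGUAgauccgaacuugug
miR-26a-5p: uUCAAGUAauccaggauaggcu
miR-26b-5p: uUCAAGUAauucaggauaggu
miR-29a-3p: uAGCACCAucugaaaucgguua
miR-29b-3p: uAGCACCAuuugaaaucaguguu
miR-29c-3p: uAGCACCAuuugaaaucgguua
miR-146a-5p: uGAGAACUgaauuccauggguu
miR-146b-5p: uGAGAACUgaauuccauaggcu
miR-99a-5p and miR-100-5p differ at 1 of 22 bases, as do miR-29a-3p and miR-29c-3p, and reads of such pairs can be hard to assign.

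The miR-99/100 family, which targets mTOR, was 1.44-fold lower in sum in the ethanol-fed library (1.42 to 1.47). miR-99b-5p had 35134 pair-fed and 25393 ethanol-fed reads (log2 ratio -0.52), miR-100-5p 6942 and 4360 (-0.72), and miR-99a-5p 3679 and 2988 (-0.35). The miR-146 family, a brake on Toll-like receptor signalling, was 1.51-fold lower (1.45 to 1.58), with 3385 and 2120 reads for miR-146a-5p and 1563 and 1261 for miR-146b-5p. Every member of both families was below 0, and none reached 2-fold.

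The miR-26 and miR-29 families lay on the other side. The miR-26 sum was 1.33-fold higher (1.31 to 1.35), with 23115 pair-fed and 32115 ethanol-fed reads of miR-26a-5p and 2224 and 2789 of miR-26b-5p. The miR-29 family, which represses collagen messenger RNAs, was 1.45-fold higher in sum (1.36 to 1.54). miR-29a-3p had 1403 and 2118 reads (log2 ratio 0.55), miR-29c-3p 145 and 207 (0.46), and miR-29b-3p had a ratio of 0.34. No member of either family reached 2-fold.

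The 6 members of the miR-15/16 family were all above 0, though miR-195a-5p (0.04) changed side when the most abundant microRNA was left out of the total. The family sum had a log2 ratio of only 0.08. miR-16-5p, with 5777 pair-fed and 6155 ethanol-fed reads, held 90.1% of the reads, whereas miR-15b-5p (1.05) was far rarer. In the miR-181 5p family the sum was at -0.16, while miR-181d-5p had 71 and 131 reads (0.83) and miR-181b-5p a ratio of -0.56. The miR-25/92/32 family had a sum at 0.18, with miR-32-5p at 37 pair-fed and 16 ethanol-fed reads (-1.21). The sums led by miR-192-5p (-0.06), miR-10a-5p (-0.22), miR-148a-3p (0.13) and miR-125a-5p (-0.05) were each within 1.5-fold. The last of these sums lay below 0 although miR-125a-5p itself, with 11466 pair-fed and 12123 ethanol-fed reads, was at 0.03.

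**Figure D3:**
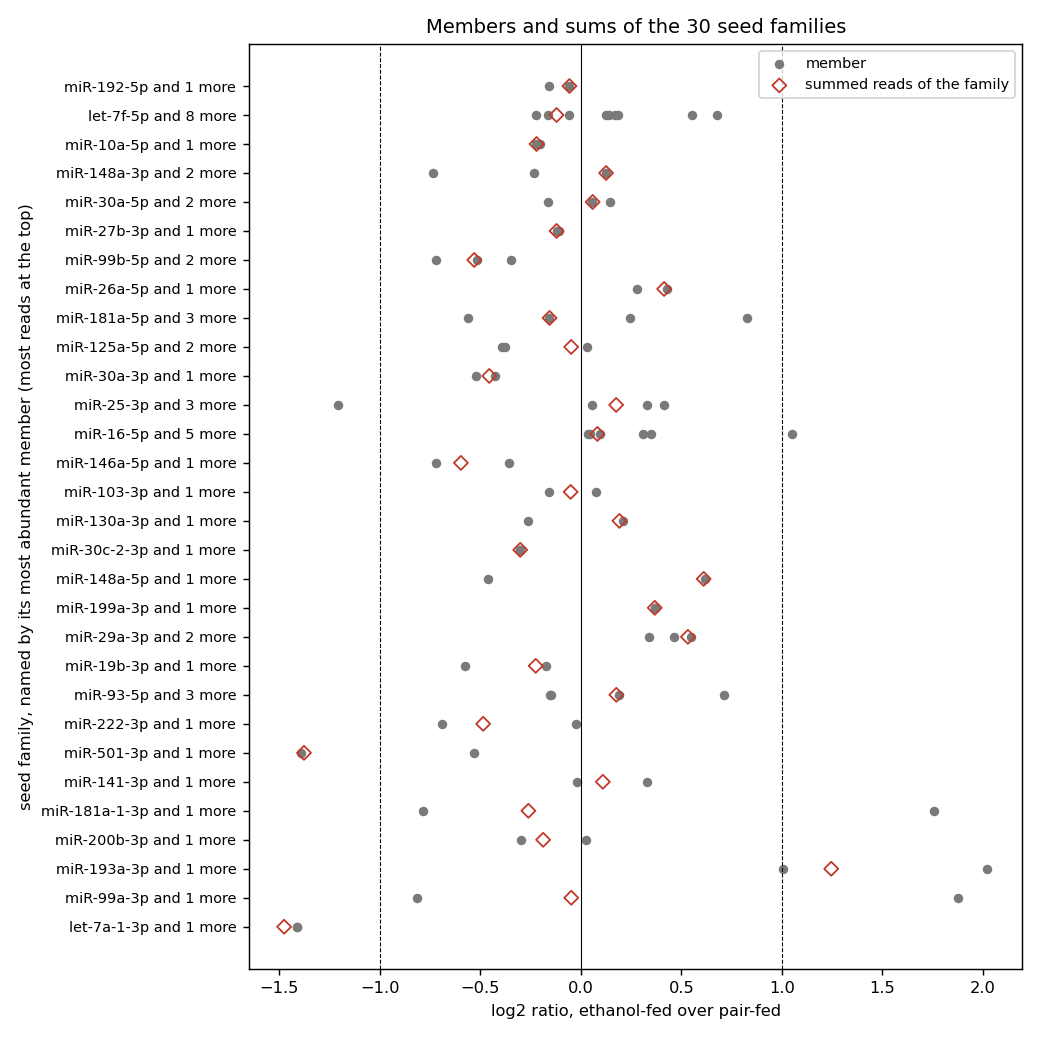
Log2 ethanol-fed to pair-fed ratio (x axis) for the seed families with at least 2 members (y axis), with 1 point per member and a separate mark for the ratio of the summed reads. The members of the let-7 family lie on both sides of 0 (-0.22 to 0.68), while those of the miR-99/100, miR-29 and miR-15/16 families lie on 1 side.

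A shared name did not mean a shared seed or ratio. miR-378b and miR-378c have 19 bases in common, but they do not start at the same base and so have different seeds.
miR-378b: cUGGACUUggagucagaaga
miR-378c: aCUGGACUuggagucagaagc
miR-378c had 803 pair-fed and 688 ethanol-fed reads (log2 ratio -0.27), and miR-378a-3p, which lies in the Ppargc1b gene, had 27600 and 18524 (-0.62). The -2.37 of miR-378b thus stood apart from both in size, though all 3 were below 0, and the rarer arm miR-378a-5p had 23 and 11 reads (-1.05). The 3p products of the miR-181 hairpins differed more, with miR-181a-1-3p at 119 and 71 reads (-0.79) and miR-181c-3p, of the same seed, at 11 and 41 (1.76).
miR-181a-2-3p: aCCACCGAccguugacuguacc
miR-181a-1-3p: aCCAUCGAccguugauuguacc
miR-181c-3p: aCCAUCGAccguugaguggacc
miR-181a-2-3p and miR-181a-1-3p differ at 2 of 22 bases, and their seeds are not the same.

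By arm, 145 members were 5p products, 143 were 3p products and 14 had no arm in the name. Among the 5p members 14 were at least 2-fold higher and 18 lower (22.1%, median log2 ratio 0.02), and among the 3p members 22 were higher and 18 lower (28.0%, median -0.03), beside 25.5% of all 302 members. The 5p members held 76.5% of the pair-fed and 76.1% of the ethanol-fed reads, and the 3p members 23.4% and 23.9%. The balance of the arms over the whole libraries was therefore nearly the same.

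Both arms of 74 hairpins were members. The 5p arm had more reads in 40 of them in the pair-fed library and in 41 in the ethanol-fed one, and the more abundant arm differed between the libraries in 7. The 5p to 3p ratio differed by at least 2-fold in 27 of the 74 hairpins (36.5%), toward 5p in 11 and toward 3p in 16 of the ethanol-fed against the pair-fed library. The rarer arm was at least 2-fold higher or lower in 24 of the 74 hairpins and the more abundant arm in 11, beside 25.5% of all 302 members. The rarer arm has fewer reads by choice, and 40.3% of the members with 10 to 99 reads reached 2-fold. In 35 hairpins (35 to 39 over the scalings tried) both arms lay on the same side of 0. Of the 26 hairpins with at least 100 reads on each arm, 3 differed by at least 2-fold, those of miR-1843b, miR-145a and miR-1247.

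The 5 largest differences of the arm ratio rested on arms with few reads. The miR-574 hairpin had 1 read on the 5p and 13 on the 3p arm in the pair-fed library, and 11 and 5 in the ethanol-fed library, a 5p share of 7.14% and 68.8%. In miR-744, 720 and 0 reads stood beside 683 and 11, and in miR-31, 854 and 14 beside 937 and 1. The 5p share of miR-222 was 1.14% (6 of 528 reads) in the pair-fed and 9.49% (35 of 369 reads) in the ethanol-fed library. In miR-214, 6 and 3 reads stood beside 5 and 20. In miR-744 and miR-31 the abundant arm hardly differed (log2 ratios of -0.12 and 0.09).

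Better counted were the hairpins of miR-1843b, miR-145a, miR-1247 and miR-30e. The 5p share of miR-1843b was 84.1% of 928 pair-fed and 95.6% of 1033 ethanol-fed reads. That of miR-145a was 15.6% and 33.2%, with 119 and 256 reads on the 5p and 643 and 515 on the 3p arm, and that of miR-1247 was 19.1% and 32.8%. In miR-1843b and miR-145a the arms moved to opposite sides, whereas both arms of miR-1247 were above 0.

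miR-30e was the best counted of the 7 hairpins in which the more abundant arm differed. Both of its arms are known to be used, and their sequences carry different seeds.
miR-30e-5p: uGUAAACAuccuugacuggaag
miR-30e-3p: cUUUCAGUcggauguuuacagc
In the pair-fed library, 3184 reads came from the 5p and 4368 from the 3p arm, compared to 3641 and 3149 in the ethanol-fed library. The 5p share was 42.2% (exact 95% interval 41.0% to 43.3%) and 53.6% (52.4% to 54.8%). The arm ratio differed by 0.67 on the log2 scale, which is under 2-fold. The other 6 hairpins of this kind were miR-574, miR-214, miR-339, miR-335, miR-511 and miR-434.

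**Figure D4:**
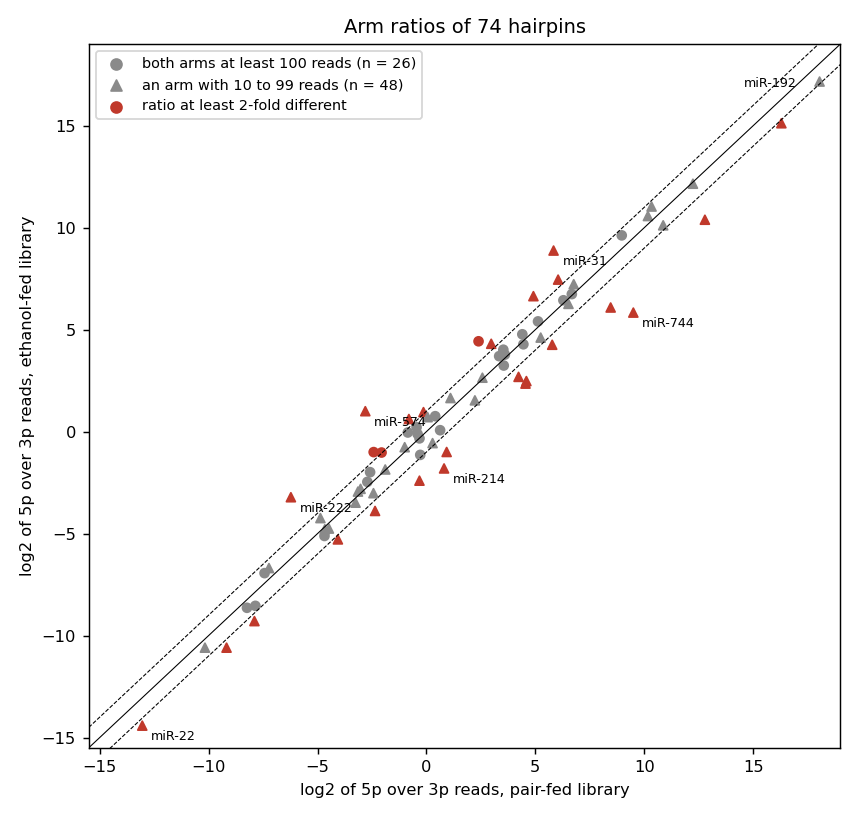
Log2 of 5p over 3p reads in the ethanol-fed library (y axis) against the pair-fed library (x axis) for the 74 hairpins with both arms among the members, 1 point each, with lines at equality and at 2-fold. The points keep close to the line of equality for most hairpins, and the 27 beyond 2-fold include miR-574 and miR-744, which have few reads on 1 arm.

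By position, 225 members were placed in the genome (GRCm38.p6) and joined into clusters wherever neighbours of 1 strand lay no more than 50000 bp apart, and 20 clusters had at least 3 members. The imprinted Meg3-Rian-Mirg region of chromosome 12 (chr12:109563692-109747960, plus strand), whose microRNAs are expressed from the maternal chromosome, was singled out after its values were seen and is described with no test. It spans 2 neighbouring clusters and held 16 members of 13 hairpins. Their summed level was 262 pair-fed RPM (1091 reads) and 661 ethanol-fed RPM (2849 reads), which was 2.53-fold higher (2.35 to 2.71). Of the 16 members, 10 were at least 2-fold higher and 1 was at least 2-fold lower, beside 28 (9.79%) higher and 38 lower of the other 286. The median log2 ratio was 1.33 for the region and -0.05 for the other members.

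Beside miR-127-3p, miR-411-5p and miR-541-5p, named above, 7 rarer members of the region were at least 2-fold higher. miR-409-3p had 26 pair-fed and 72 ethanol-fed reads, miR-381-3p 18 and 68, and miR-410-3p 21 and 59. miR-136-3p had 19 and 52, miR-434-3p 13 and 36, miR-540-3p 4 and 26, and miR-300-3p 3 and 26. The exception was miR-341-3p, with 12 and 2 reads (6.2-fold lower, 1.38 to 57.1), and miR-136-5p (15 and 9) and miR-379-5p (8 and 4) also lay below 0. Of the 3p members 8 of 9 were at least 2-fold higher, compared to 2 of 7 of the 5p members. miR-485-5p, which RefSeq gene names put in the same region, had 17 and 3 reads, and with it the summed level was 2.49-fold higher. In the libraries of experiment 2, 13 of the 16 were above 0, and their sum was 637 pair-fed and 179 ethanol-fed RPM, so the direction was the opposite there.

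Other clusters held fewer members. The miR-451a/miR-144 cluster of chromosome 11 had 3 members, all above 0, with a median of 1.81. In the miR-183/96/182 cluster of chromosome 6 all 3 members were below 0, as miR-182-5p had 34472 pair-fed and 18123 ethanol-fed reads (log2 ratio -0.98), miR-183-5p was named above, and miR-96-5p had 45 and 29 (-0.66). Likewise, the 3 placed members of the cluster with miR-221 and miR-222 and the 3 of that with miR-100 and miR-125b were all below 0, with medians of -0.58 and -0.72, except that miR-221-3p (-0.02) lay above 0 with median-of-ratios or TMM factors and with unscaled reads. miR-222-5p, which was not placed, had 6 pair-fed and 35 ethanol-fed reads (2.31), on the other side from its neighbours.

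**Figure D5:**
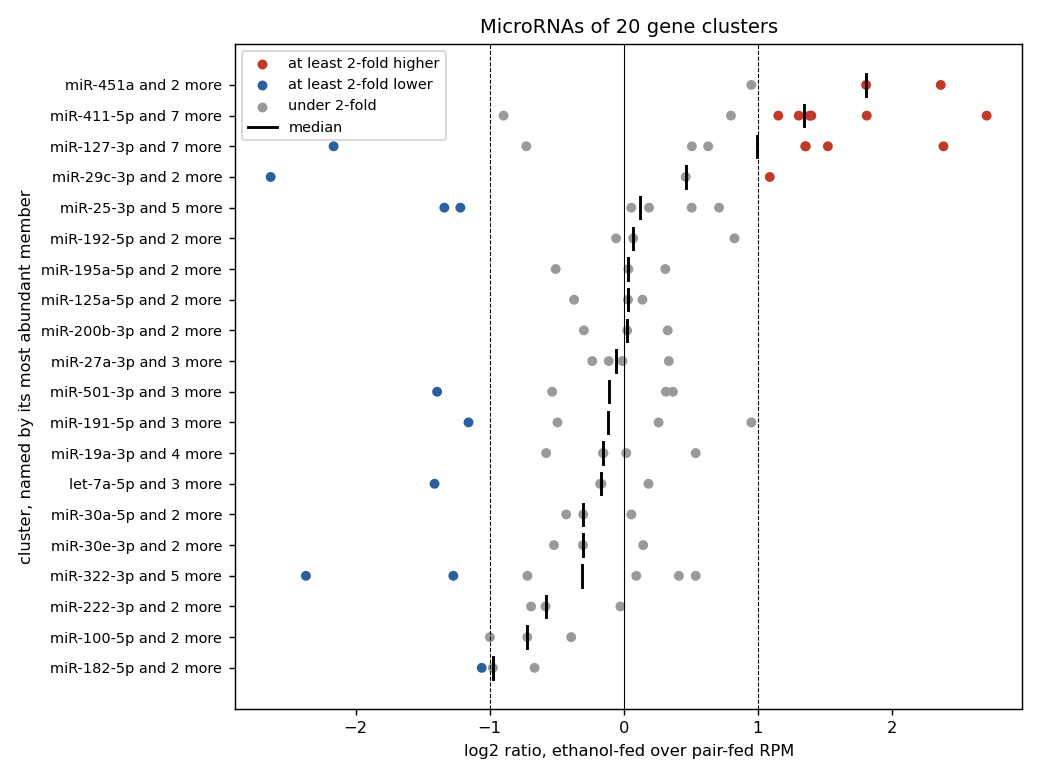
Log2 ethanol-fed to pair-fed ratio (x axis) for the members of each genomic cluster with at least 3 members (y axis), 1 point per member, with the cluster median. The clusters of the chromosome 12 region and of miR-451a/miR-144 lie mostly right of 0, and those of miR-183/96/182, of miR-221 with miR-222 and of miR-100 with miR-125b lie left of it.

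For counts by chromosome, only members with a sequence and 1 place in the genome were taken. The 26 of chromosome 12 held 13 that were at least 2-fold higher and 2 that were lower (median 0.98). Of these, 10 of the higher and 1 of the lower were members of the imprinted region described above, so the 2 counts are not separate. Over all members, 12.6% were higher. The 25 of the X chromosome held 0 higher and 4 lower, among them miR-501-3p (median -0.38), beside 12.9% lower over all members. Left out, for example, were miR-222-5p (2.31), which was not placed, and miR-450a-5p (-1.27), with 2 places on the X chromosome. By placement of the members so taken, the 96 in introns of coding genes had 11 higher and 12 lower (median -0.01). The 72 outside annotated genes had 12 and 8 (0.06), and the 35 in exons of noncoding genes 4 and 7 (-0.15). The 18 in introns of noncoding genes had 2 and 3 (-0.45), and the 18 in exons of coding genes 0 and 4 (-0.22). Over all 302 members, 12.6% were higher and 12.9% lower. The median GC content was 47.8% over all 259 members with a sequence and 50% among both the higher and the lower ones. Among those with at least 100 reads it was 44% for the 7 higher, 50% for the 9 lower and 45.5% for all 136.

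The tissue was then checked with microRNAs typical of the cell types that liver samples can hold. All 6 hepatocyte microRNAs had at least 10 reads, 3 were above and 3 below 0 (4 and 2 with TMM factors), and none reached 2-fold, with a summed level of 462759 pair-fed and 453380 ethanol-fed RPM. Almost all of it was miR-192-5p and miR-148a-3p. miR-122-5p itself had 12392 and 9529 reads (log2 ratio -0.43), the 25th and the 27th most abundant place. miR-122-3p, miR-802-5p and miR-194-5p had 158 and 109, 506 and 581, and 4792 and 5208 reads.

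Beside the red cell list, all 5 members of which were above 0 and 4 at least 2-fold higher (median 1.55), the other lists moved less. All 5 counted white cell microRNAs were below 0 and none reached 2-fold, with a summed level of 417 and 346 RPM and a median of -0.55. They were miR-223-3p (76 pair-fed and 50 ethanol-fed reads), miR-223-5p (57 and 46), miR-142a-3p (60 and 42), miR-142a-5p (1286 and 1172) and miR-150-5p (262 and 180). The sixth of the list, miR-155-5p, had 0 and 4 reads and was under the minimum. The part of blood in the red cell values was not tested.

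The mesenchymal list had 8 of 8 members counted, 2 of them at least 2-fold higher (median 0.37), and nearly equal sums of 96918 and 96517 RPM, most of it miR-143-3p. The 2 were miR-145a-5p and miR-214-3p, with 3 pair-fed and 20 ethanol-fed reads (6.45-fold higher, 1.91 to 33.9). miR-199a-3p and miR-199b-3p, whose sequences are identical, had 885 and 885 pair-fed and 1181 and 1180 ethanol-fed reads. miR-199a-5p had 134 and 213, miR-145a-3p 643 and 515, and miR-214-5p 6 and 5. The endothelial miR-126a-5p had 14849 and 20659 reads (0.43) and miR-126a-3p 1226 and 1511 (0.25).

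Markers of other tissues were at low levels where they were listed. Bile duct epithelial microRNAs summed to 61.4 pair-fed and 61.9 ethanol-fed RPM, with miR-200a-3p at 46 and 60 reads, miR-200b-3p at 81 and 68, miR-141-3p at 92 and 94, miR-429-3p at 37 and 39, and miR-200c-3p, under the minimum, at 0 and 6. Of 4 pancreatic microRNAs, miR-375-3p alone was counted, with 355 and 205 reads (log2 ratio -0.84). miR-216b-5p, under the minimum, had 0 and 4 reads, and miR-216a-5p and miR-217-5p were not listed in experiment 1. Of 4 striated muscle microRNAs miR-133a-3p alone was counted. miR-133b-3p had 1 pair-fed and 2 ethanol-fed reads, and miR-1a-3p and miR-206-3p were not listed in experiment 1, so they have no value.

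Every member of experiment 1 had a row in the table of experiment 2, where 270 were above 0 in both libraries, 13 in 1 library and 19 in none. The lowest value listed above 0 there was 0.92 RPM. Of the 19, 4 were at least 2-fold higher and 4 at least 2-fold lower (42.1%), compared to 34 and 35 (24.4%) of the other 283, and the medians were 0.07 and -0.02. Only 3 of the 19 had at least 100 reads. The 42.1% was near the 40.3% of all 144 members with 10 to 99 reads. The 19 held 0.0416% of the pair-fed reads and 0.0178% of the ethanol-fed reads.

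Most of the reads of the 19 came from miR-181a-2-3p, described above, whose 1431 pair-fed reads stood far over the next. miR-101b-5p and miR-1943-5p were named among the lower ones too, and miR-410-3p and miR-540-3p among the higher members of the chromosome 12 region. miR-8111 had 14 pair-fed and 33 ethanol-fed reads and miR-7236-3p 0 and 10, both at least 2-fold higher, and miR-1199-5p had 12 and 3 (4.14-fold lower, 1.12 to 22.8). The other 11 were under 2-fold. miR-128-1-5p had 17 and 29 reads, miR-7688-5p 10 and 17, miR-5107-5p and miR-6539 each 11 and 12, and miR-874-5p 6 and 10. miR-871-3p (10 and 5), miR-3103-5p (8 and 6), miR-20a-3p (5 and 8), miR-1191b-5p (7 and 5), miR-470-5p (8 and 4) and miR-673-5p (4 and 7) were the rarest. Apart from miR-181a-2-3p, then, these were microRNAs with few reads.

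In the other direction, 186 of the 469 microRNAs above 0 in experiment 2 had fewer than 10 reads or no row in experiment 1, and 99 had no row. The most abundant of the 99 was miR-7a-5p, with 5110 pair-fed and 3707 ethanol-fed RPM in experiment 2. miR-374c-5p followed with 461 and 352 RPM, and miR-1a-3p, the main microRNA of striated muscle, had 69.9 and 111 RPM there. For these microRNAs experiment 1 gives no value.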

How the data were processed

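RNA of flash-frozen liver was extracted with Trizol, and small RNAs of 18 to 40 nt were taken from a gel and sequenced on an Illumina instrument. Of experiment 1 the table deposited by the authors gives each microRNA's raw read count, and for experiment 2 the authors deposited RPM, used here to see whether a microRNA was listed above 0 and for the few levels named. The submitters' processing notes name the mm8 build. Aligner, annotation and filters are not given in the sources used here. Column names gave the condition of each library, which left 0 value columns unassigned. The authors' log2 fold change and p-value columns of experiment 2 were not used. The labels give 10 days of ethanol diet in the protocol and 16 days in the design statement.

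Reads were divided by the total on microRNAs of each library, and log2 ratios were computed after adding 1 read per library, which understates differences of rare microRNAs. Members with an absolute log2 ratio of at least 1 were counted as different. Ratios were given exact (Clopper-Pearson) 95% intervals. With 1 library per group no test was run, and edgeR 4.0.16 was used only for TMM factors. Seeds came from RefSeq mature sequences, and host genes from GENCODE vM21. Arm ratios were computed for hairpins with at least 10 reads on each arm. The scripts were tested on simulated data.

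Named microRNAs were the 5 most abundant of each library, all members with at least 100 reads and at least 2-fold different, the 5 largest rises and falls with 10 to 99 reads, the most abundant and extreme members of each described family, the 5 hairpins with the largest change of arm ratio, those listed at 0 in experiment 2, and the members of the cell type lists. Any other was named with its value already in view. The members and lists were chosen with earlier results of these data known. Scaling, minimum and pseudocount were varied. The tools were R 4.3.3, Python 3.11.15, scipy 1.17.1, pandas 2.3.3, numpy 2.4.6 and matplotlib 3.10.9.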

Additional observations from a re-analysis of the deposited data

How the results depend on the processing

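The counts depended on the minimum of reads. With no minimum, 2-fold was reached by 99 higher and 102 lower names of the 484 listed, including 84 5p and 100 3p products, 7 seed families, 58 hairpin arm ratios and 114 microRNAs not found above 0 in the other table. With a minimum of 100 reads these counts were 10 and 9 of 158, with 11 5p and 6 3p products, 0 families, 3 hairpins and 3 microRNAs not found, since fewer and better counted microRNAs enter. Median-of-ratios factors, TMM factors, leaving out the most abundant microRNA, unscaled reads, a pseudocount of 0.1 read and counting each sequence once gave 37 to 42 higher and 36 to 46 lower microRNAs. After the data had been seen, 3 further alternatives were added. Without the chromosome 12 region 28 microRNAs were higher, and counting only those with an interval on 1 side of no change left 32 higher and 35 lower. Joining members without a sequence by name to families that hold a member with a sequence left 3 of 33 families at 2-fold. As neither miR-486a-5p nor miR-486b-5p has a sequence here, this step could not form their family. Apart from these alternatives, grouping by name number and arm alone gave 35 families. Of these, 5 differed by at least 2-fold, with the miR-486 5p pair among them. Of 24 named microRNAs, miR-183-5p and miR-101b-5p (both -0.99 with TMM factors) fell below 2-fold, and none of those at least 2-fold different changed direction under the scalings and pseudocount tried. Scaling moved the median of all log2 ratios by -0.04 to 0.07, and each ratio by as much. A microRNA at least 2-fold different therefore could not change direction by scaling. No paired analysis was possible because each group has 1 library. Depth limits microRNAs with few reads, and without replicates the spread between animals is unknown.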
